A study of Mus musculus with 4 samples.

Results

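Bile acids are made in the liver, released into the gut with a meal and largely recovered in the ileum, the last stretch of the small intestine. An ileal enterocyte takes them up at its luminal face, carries them through the cytosol on a binding protein and releases them to the portal blood at its basal face. The same cell reads their level through the nuclear receptor FXR, which switches on genes for binding and export and, through the hormone FGF15, lowers bile acid synthesis in the liver. The genes described here are 10 members of this system, chosen by symbol: Slc10a2 (uptake), Fabp6 (cytosolic binding), Slc51a, Slc51b and Abcc3 (basal export), Abcc2 (apical export), Nr1h4 (FXR itself), Nr0b2 and Fgf15 (effectors of FXR), and Gpbar1 (a bile acid receptor of the cell membrane). All 10 were listed in both of the authors' deposited tables, which held 25522 genes without and 26085 genes with tetracycline. They were proposed with the fasting changes of both tables known, Fabp6 above all, so those changes are given as a description.

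The RNA came from small-intestinal crypts, the pits of the gut lining that hold its stem cells. The mice were C57BL/6J males, 9 weeks old, in 4 groups: fed or fasted for 24 hours, either untreated or given the antibiotic tetracycline for 21 days, which in this study served to deplete AKK, an abbreviation left unexplained in the labels. The labels list 1 sample in each group and name neither the stretch of small intestine nor the number of mice per sample. Each deposited table compares fasted with fed mice under 1 tetracycline condition. The authors' fold changes were taken as fasted divided by fed, the word order of the table names. Under this reading the authors' deposited log2 change of Pdk4, a kinase that spares glucose in fasting, was 2.27 without and 2.90 with tetracycline.

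Whole counts recovered from the authors' means showed 4 libraries behind each table, 2 fasted and 2 fed. They could not be tied to single labelled samples or to separate mice, so each library is given as its own value, in counts divided by its size factor (normalized counts), and the library of a group with the larger size factor is called library 1. The authors' means summed to 65863261 normalized counts without and 65327199 with tetracycline. For genes with a mean of 50 to 15000, the larger of the 2 fasted libraries was a median of 1.23 times the smaller without and 1.41 times with tetracycline, against 1.19 and 1.20 for the fed libraries. Markers of both ends of the small intestine were present: the authors' means without tetracycline were 10572 for Gata4, a transcription factor of the proximal part, and 8509 for Cubn, a receptor most abundant in the distal part. The stem cell markers Lgr5 and Olfm4 had means of 803 and 63881, and enterocyte and Paneth cell genes were abundant too. Of 8 hepatocyte markers, Fgb and Hpx were at 1.42 and 4.95, Alb, Apoh and Serpina1a at 31.9 to 58.5, Ttr at 498 and Cyp2e1, called higher in fasted mice, at 271. Cps1, which enterocytes also express, was at 64173.

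FXR bound with its partner RXR is known to favour an inverted repeat of AGGTCA with 1 base between the units. Its core of 11 bases, GGTCA and TGACC with any 1 base between them, was searched on both strands (it reads the same on either) in RefSeq promoters of GRCm38.p6, from 250 bases before to 50 bases after the annotated start. Promoter entries matched 8 of the 10 genes, all but Fgf15 and Abcc3. The 250 bases before the Fabp6 start (chr11:43601563-43601812, minus strand) overlap no annotated exon and are shown because Fabp6 carried the fasting change; capitals mark the matches with at most 2 mismatches. The 30 bases from the Slc51b promoter (chr9:65422944-65422973, minus strand, 200 to 171 bases before the RefSeq start) are shown because Slc51b held the other close match, which crosses the edge of an exon in the GENCODE annotation.
Fabp6: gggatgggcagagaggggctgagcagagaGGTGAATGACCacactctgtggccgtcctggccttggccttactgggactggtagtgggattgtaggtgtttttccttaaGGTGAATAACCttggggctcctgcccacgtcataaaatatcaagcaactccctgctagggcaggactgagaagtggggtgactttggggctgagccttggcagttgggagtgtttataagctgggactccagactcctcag
Slc51b: tcatgcattcgtggGGTCATTCACCctgga
The Fabp6 promoter held a match with 1 mismatch, GGTGAATGACC, that begins at position -221 and a match with 2 mismatches, GGTGAATAACC, at -141. Slc51b held 1 match with 1 mismatch, at -186, and Gpbar1 held 1 with 2 mismatches, at -90. Of the 32851 promoters in the RefSeq table, 0.758% held a match with at most 1 mismatch and 10.7% with at most 2, so matches of the looser kind are common. The closest window had 3 mismatches in Nr0b2, Nr1h4, Slc51a and Abcc2 and 4 in Slc10a2, which says only that these letters are not in this stretch.

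Fabp6, the ileal bile acid binding protein, was the gene of the system whose level differed most between fasted and fed mice. Without tetracycline the fasted libraries held 583 and 330 normalized counts and the fed libraries 13402 and 18584. The lowest fed library was thus far above the highest fasted one. In the authors' deposited table this was a log2 change of -5.13 (SE 0.34, 95% interval -5.79 to -4.47), a fed level 35.0 times the fasted level, with an adjusted p (authors' DESeq2 test) of 1.46e-48. No gene of that table had a smaller adjusted p. It was the 1 member called of the 9 that carried an adjusted p, where 2.27% of the 18100 genes tested were called at an adjusted p under 0.05 and 1.22% were called lower in fasted mice.

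With tetracycline the fasted libraries held 728 and 4434 normalized counts of Fabp6 and the fed libraries 14357 and 9523. The groups again did not overlap, but fasted library 2 lay 6.09 times above fasted library 1. The authors' deposited table gave a log2 change of -2.21 (SE 0.75, 95% interval -3.68 to -0.74), a fed level 4.63 times the fasted level, with an adjusted p (authors' DESeq2 test) of 0.268. Fabp6 was thus not called there, nor was any of the 9 members with an adjusted p, in a table where 0.6% of 17993 genes were called. The size of the change rested on fasted library 2: recomputed from the group means without it, the log2 change was -4.04, and without fasted library 1 it was -1.43.

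**Figure D1:**
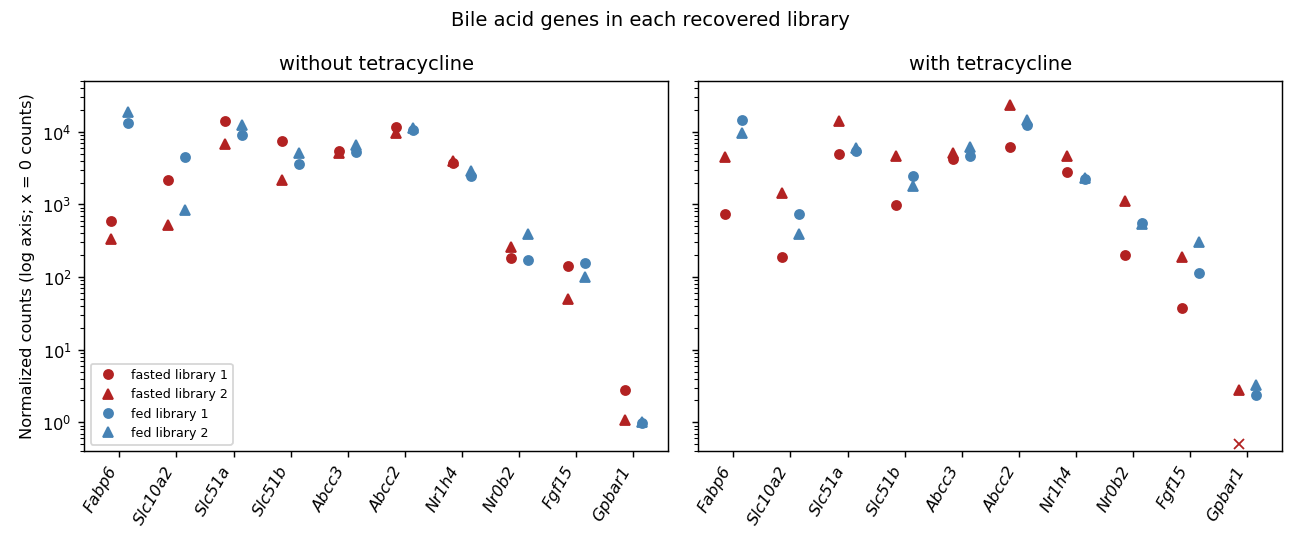
Normalized counts (log axis) of the 10 bile acid genes in each recovered library, fasted in red and fed in blue, circles for library 1 and triangles for library 2 of a group, with a cross for a library with 0 counts. Fabp6 is the gene with fasted and fed points far apart without tetracycline (583 and 330 against 13402 and 18584), and with tetracycline most genes are higher in fasted library 2 than in fasted library 1.

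The fasting change of Fabp6 was 2.92 log2 units smaller in size with tetracycline than without (SE 0.82, 95% interval 1.31 to 4.53). A Wald test on the deposited changes and standard errors gave an unadjusted p of 0.000387 and a Benjamini-Hochberg adjusted p of 0.566 over 17571 genes, so the difference did not pass the threshold; 0.0228% of those genes did. Dividing the statistics by their robust SD over all genes (0.714) put it past the threshold, with an adjusted p of 0.000977, as it did for 0.182% of genes. A divisor under 1 enlarges every statistic, so this setting is less strict than the plain Wald test. Without fasted library 2 of the tetracycline table the difference was 1.09. Fabp6 was chosen for its fasting change, so this difference is not independent evidence.

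**Figure D2:**
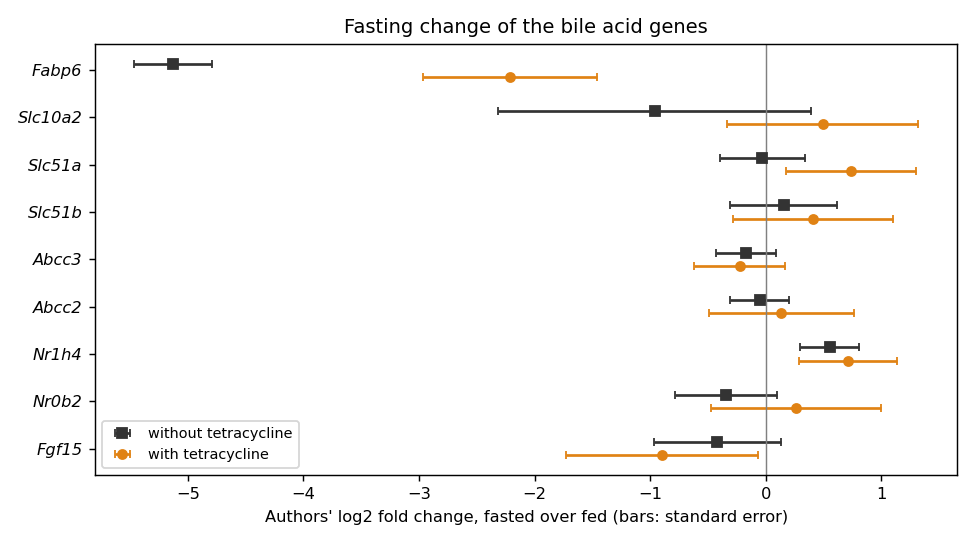
The authors' log2 fold change of fasted over fed for 9 bile acid genes, with bars of 1 standard error, without (squares) and with tetracycline (circles); Gpbar1 is left out because it had at most 3 counts in any library. Fabp6 stands at -5.13 and -2.21, and the other genes lie between -0.96 and 0.74.

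Relating Fabp6 to another gene of the same library removes the library's scaling. Per normalized count of Slc51a, the alpha subunit of the basal bile acid exporter, Fabp6 stood at 0.0408 and 0.0488 in the fasted and at 1.48 and 1.49 in the fed libraries without tetracycline. The 2 fasted libraries, which differed 2.11-fold in Slc51a, thus had nearly the same ratio. With tetracycline the ratio was 0.149 and 0.317 in the fasted and 2.64 and 1.61 in the fed libraries. The geometric means of fed over fasted were 33.3 without and 9.50 with tetracycline. Slc51a had a deposited log2 change of 0.74 with tetracycline, so part of that ratio is its own level. Over Slc51a, Nr0b2, Fgf15 and Abcc2 were also lower in both fasted than in both fed libraries with tetracycline, with log2 ratios of -0.76, -1.70 and -0.70 against -3.25 for Fabp6; without tetracycline Fabp6 was the 1 member for which this held. The same order over Slc51a was found for 24.5% of all genes with a mean of 50 to 15000 with tetracycline and for 4.33% without.

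The same held when Fabp6 was related to Slc51b, Slc10a2, Abcc2, Nr1h4, the distal receptor Cubn or the peptide transporter Slc15a1, a set of genes chosen after their values were seen. For all 7 denominators both fasted libraries lay below both fed libraries in each table, as they did for 0.103% of genes with a mean of 50 to 15000 without and 0.938% with tetracycline, Fabp6 included. The log2 ratio of fasted over fed ran from -5.73 (Nr1h4) to -4.31 (Slc10a2) without and from -3.37 (Slc15a1, and nearly the same for Nr1h4) to -2.55 (Abcc2) with tetracycline. Slc15a1 itself had deposited log2 changes of 0.67 (SE 0.44) and 1.53 (SE 0.86), neither called, so part of its ratio is its own level. Since scaling cancels, these ratios can also be set side by side across the tables. For all 7 denominators the lower of the 2 fasted libraries with tetracycline lay above the higher of the 2 without it, by 1.68 times (Nr1h4) to 4.87 times (Slc10a2); 0.0561% of 12479 genes, Fabp6 included, had this order over all 7. In the fed libraries this was so for 2 of the 7, Slc51a and Slc51b, as for 88.1% of those genes over these 2, both of which were lower in fed mice with tetracycline. Numerator and libraries are shared by all 7 ratios, so they are not separate observations.

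**Figure D3:**
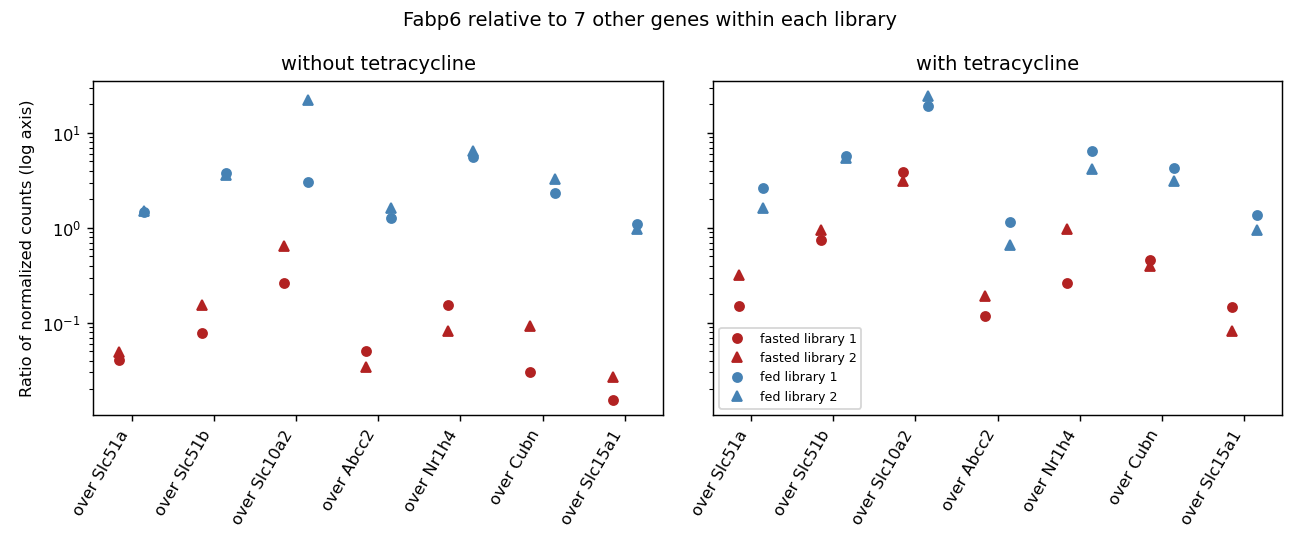
Normalized counts of Fabp6 divided by those of 7 other genes in the same library (log axis), without tetracycline on the left and with it on the right, fasted in red and fed in blue. Fasted points lie below fed points for each gene, and the fasted points are higher with tetracycline (0.149 and 0.317 over Slc51a) than without it (0.0408 and 0.0488).

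Slc10a2, the sodium-dependent transporter that takes bile acids up from the lumen, varied more between libraries of 1 group than between groups. Without tetracycline the fasted libraries held 2201 and 514 and the fed libraries 4455 and 832 normalized counts. The spread was 4.28-fold among fasted and 5.36-fold among fed libraries, and the groups overlapped. The authors' deposited table gave a log2 change of -0.96 with an SE of 1.35, so a change of several-fold in either direction lay inside its 95% interval (-3.61 to 1.69). With tetracycline the fasted libraries held 189 and 1417 and the fed libraries 747 and 392, and the log2 change was 0.49 (SE 0.83).

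Slc51a and Slc51b encode the subunits of the exporter OST, which works only as a pair. Without tetracycline Slc51a held 14295 and 6764 normalized counts in the fasted and 9053 and 12437 in the fed libraries. Slc51b held 7481 and 2165 in the fasted and 3554 and 5105 in the fed libraries. For both genes the fasted pair enclosed the fed pair. The authors' deposited log2 changes were -0.03 (SE 0.37) and 0.16 (SE 0.46), with 95% intervals of -0.75 to 0.69 and -0.75 to 1.06.

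With tetracycline Slc51a held 4900 and 14004 normalized counts in the fasted and 5443 and 5914 in the fed libraries. Slc51b held 987 and 4678 in the fasted and 2492 and 1770 in the fed libraries. Fasted library 1 was again on the other side of the fed libraries from fasted library 2, and the authors' deposited log2 changes were 0.74 (SE 0.56) and 0.41 (SE 0.70). Neither subunit of the exporter had a level near the Fabp6 pattern in either table.

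The ABC transporters Abcc3, at the basal face, and Abcc2, at the apical face, had, with Nr1h4, the smallest standard errors of the members without tetracycline. Abcc3 held 5482 and 5060 normalized counts in the fasted and 5320 and 6525 in the fed libraries, with a deposited log2 change of -0.17 (SE 0.26). Abcc2 held 11676 and 9581 in the fasted and 10682 and 11359 in the fed libraries, with a deposited log2 change of -0.05 (SE 0.25, 95% interval -0.55 to 0.45). With tetracycline Abcc3 held 4218 and 5057 in the fasted and 4597 and 6234 in the fed libraries, a change of -0.22 (SE 0.39) in the authors' deposited table. Abcc2 there held 6223 and 23301 in the fasted and 12460 and 14419 in the fed libraries, so the fasted libraries enclosed the fed ones, and the deposited change was 0.14 (SE 0.63).

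Nr1h4, the gene of FXR, was the other member, beside Fabp6, with enough counts to read whose fasted and fed libraries were separate in both tables. Without tetracycline it held 3774 and 3993 normalized counts in the fasted and 2429 and 2863 in the fed libraries. With tetracycline it held 2798 and 4612 in the fasted and 2211 and 2307 in the fed libraries. The fasted libraries were thus the higher ones, opposite to Fabp6. The authors' deposited log2 changes were 0.55 (SE 0.26, unadjusted p 0.0307, adjusted p 0.366 in the authors' DESeq2 test) and 0.71 (SE 0.43, adjusted p 0.9999), so neither was called. Fasted libraries wholly above the fed ones are also common among all genes: 20.2% of genes with a mean of 50 to 15000 without and 15.2% with tetracycline had them, and 24.8% and 15.5% had them wholly below.

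Nr0b2, the repressor SHP that FXR induces, held 182 and 260 normalized counts in the fasted and 172 and 389 in the fed libraries without tetracycline. With tetracycline it held 202 and 1121 in the fasted and 558 and 544 in the fed libraries. The groups overlapped in both tables, and the deposited log2 changes were -0.34 (SE 0.44) and 0.26 (SE 0.74). Fgf15, the hormone that reports bile acid return to the liver, was scarce in this crypt RNA. It held 140 and 49.5 normalized counts in the fasted and 155 and 99.5 in the fed libraries without tetracycline, and 37.0 and 187 in the fasted and 115 and 299.8 in the fed libraries with it. The groups overlapped again, and the deposited log2 changes were -0.42 (SE 0.55) and -0.89 (SE 0.83). Of the 3 genes said to respond to FXR in this set beside the exporter, Fabp6, Nr0b2 and Fgf15, it was thus Fabp6 alone that was called in either table. The changes of these genes were not tested against each other.

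Gpbar1, the membrane bile acid receptor TGR5, was at the detection limit. Its counts were 3 and 1 in the fasted and 1 and 1 in the fed libraries without tetracycline, and 0 and 2 in the fasted and 3 and 3 in the fed libraries with it. Both groups were at or under 3 counts per library, so no fold is given. The authors' deposited tables give it no adjusted p.

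Per kilobase of annotated exon, the order of levels in fed mice without tetracycline was Fabp6 (33388 normalized counts per kilobase), Slc51b (6106), Slc51a (3360), Abcc2 (1292), Nr1h4 (1149), Abcc3 (1039), Slc10a2 (637), Nr0b2 (248), Fgf15 (41.5) and Gpbar1 (0.926). In fasted mice Fabp6 stood at 954, below Slc51b (6802), Slc51a (3293), Nr1h4 (1686) and Abcc2 (1246) and close to Abcc3 (925). With tetracycline Fabp6 led in fed mice at 24927 and also in fasted mice at 5387, where Slc51b was at 3995, but the lead in fasted mice came from fasted library 2 (9257 against 6598 for Slc51b). In fasted library 1 Fabp6 stood at 1520, beside 1532 for Slc51a and 1393 for Slc51b. In fed mice without tetracycline the libraries of the neighbours Nr1h4 (1055 and 1243 per kilobase) and Abcc3 (934 and 1145) overlapped, while those of Abcc2 (1252 and 1331) lay just above both. The place of Slc10a2 in the order is as uncertain as its 5.36-fold spread.

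Across the 9 members with an adjusted p, the median log2 change was -0.17 without and 0.26 with tetracycline, beside 0.0067 and -0.018 over all genes tested. At an unadjusted p under 0.05 there were 2 members without tetracycline, Fabp6 and Nr1h4, and 1 with it, Fabp6; the same was so of 10.8% and 5.34% of all genes tested. The difference between the fasting changes was past the threshold for none of the 9 members tested; beside the 0.566 of Fabp6, the adjusted p of the Wald test was 0.99997 for each of the other 8, and 1 of the 9, Fabp6, had an unadjusted p under 0.05, as had 1.05% of the 17571 genes. The intervals of those differences were wide: for Slc10a2 the difference was 1.46 (95% interval -1.65 to 4.56), and for Abcc3, the narrowest, -0.06 (-0.98 to 0.86).

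Setting the group means of the separately scaled tables side by side, centred on the median gene and not tested, tetracycline and untreated mice differed in several members. In fed mice Slc10a2 was lower with tetracycline by a log2 ratio of -2.27, Slc51b by -1.08 and Slc51a by -0.98, while Fabp6 was at -0.48 and Nr0b2 at 0.91. The value of Slc10a2 rested on fed library 1 without tetracycline and was -0.61 without that library; that of Nr0b2 was 0.44 without the same library and 1.62 without the other fed library of that table. Both fed libraries with tetracycline were below both without it for Slc10a2 (747 and 392 against 4455 and 832), Slc51a (5443 and 5914 against 9053 and 12437) and Slc51b (2492 and 1770 against 3554 and 5105), and also for Nr1h4 (2211 and 2307 against 2429 and 2863). Both were above for Nr0b2 (558 and 544 against 172 and 389) and Abcc2 (12460 and 14419 against 10682 and 11359). Such separation was common: of 12485 genes with a mean of 50 to 15000 in both tables, 15.7% were wholly lower and 20.5% wholly higher in the fed libraries with tetracycline. In fasted mice the log2 ratio of Fabp6 was 2.43, with the libraries at 728 and 4434 with against 583 and 330 without tetracycline. It rested on fasted library 2 with tetracycline and was 0.61 without it. Fabp6 was the 1 member whose fasted libraries were wholly higher with tetracycline, as they were for 12.7% of the 12485 genes. Abcc3 (4218 and 5057 against 5482 and 5060) was the 1 member wholly lower, as were 5.51% of genes. Nr0b2 was at 1.51 and, without fasted library 2 with tetracycline, at -0.20, the libraries being at 202 and 1121 against 182 and 260, and the other members with a mean of at least 50 between -0.83 and 0.41.

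The fasted libraries with tetracycline stood apart in cell markers. Fasted library 2 was higher than fasted library 1 for all 9 members other than Gpbar1, by 1.20 times (Abcc3) to 7.49 times (Slc10a2), and by over 2 times for 7 of them. Of the 12906 genes with a mean of 50 to 15000, 9.70% were over 2 times higher in it. The summed level of the 6 recovered of 15 enterocyte markers was 63681 in fasted library 1 and 397914 in library 2. That of 15 distal small-intestine markers was 64180 and 249878, and that of the 12 recovered of 15 proximal markers 46242 and 209900. The summed level of the 4 recovered of 7 Paneth cell markers went the other way, at 211561 and 37670, as did that of 6 lymphocyte markers, at 18381 and 3135. The 7 recovered of 8 stem cell markers also did so, at 43388 and 18147. In bulk RNA fewer cells of a type and less RNA per cell cannot be told apart, and the part of these markers in the members' values was not tested. The Fabp6 ratio to Slc15a1, an enterocyte gene, was 0.148 and 0.0812 in these libraries. It was also lower in library 2 over Slc10a2 (3.85 and 3.13) and Cubn (0.463 and 0.397). Over Slc51a (0.149 and 0.317), Slc51b (0.738 and 0.948), Abcc2 (0.117 and 0.190) and Nr1h4 (0.260 and 0.962) it was higher in library 2.

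The distal, enterocyte and proximal marker lists without tetracycline stand beside the Fabp6 change as follows. Of the 15 distal markers none was called in the authors' deposited table (1, Clec2h, had an unadjusted p under 0.05 in the DESeq2 test), 10 had a positive and 5 a negative log2 change, and their median was 0.43. In the fasted libraries the 14 recovered distal markers summed to 255040 and 77074, and in the fed libraries to 85650 and 109547. Fasted library 2 was thus the lowest of the 4 in this sum as in Fabp6 (330), and fasted library 1 the highest in the sum. The part of these lists in the Fabp6 change was not tested. Of 15 enterocyte markers 1 was called, Apob, the lipoprotein scaffold, at 1.41 (SE 0.42, higher in fasted mice). The enterocyte list had 13 positive and 2 negative changes (median 0.58), the proximal list 6 and 9 (median -0.16). An unadjusted p under 0.05 in the DESeq2 test was found for 5 enterocyte and 5 proximal markers, and for 10.8% of all genes tested. Of 15 proximal markers 1 was called higher, Fabp1, and 2 lower, the iron exporter Slc40a1 (-1.28, SE 0.34) and the hormone gene Cck (-1.02, SE 0.31), in a table where 1.06% of all genes tested passed in the higher and 1.22% in the lower direction. Of these 3 lists 1 marker was called in the tetracycline table, again Slc40a1, at -1.91 (SE 0.49, adjusted p 0.0201 in the authors' DESeq2 test), where 0.267% of all genes tested were called lower. At an unadjusted p under 0.05 in that test there were 4 distal, 1 enterocyte and 3 proximal markers, beside 5.34% of all genes tested.

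Markers of other cells differed between fasted and fed mice without tetracycline. Of 7 Paneth markers 4 were called higher without tetracycline, Mmp7 most (2.07, SE 0.26), and their recovered sum was 86862 to 107254 in fasted and 55971 to 56803 in fed libraries. Of 6 lymphocyte markers 2 were called lower, among them Cd79a, with sums of 5685 to 11129 in fasted and 12930 to 16021 in fed libraries. Of 6 stromal markers 3 were called lower, Col1a1, Col1a2 and Col3a1, with sums of 116 to 315 in fasted and 436 to 1637 in fed libraries. Of 5 myeloid markers 1, Lyz2, was called lower, with sums of 996 to 1355 and 1877 to 3124. Of 8 pancreatic acinar markers none was called in the authors' DESeq2 test, but all 8 changes were negative (median -1.56), and 3, Cel, Cela2a and Prss2, had an unadjusted p under 0.05, as had 10.8% of all genes tested. Their recovered sums were 529 and 681 in the fasted and 496 and 1595 in the fed libraries, which overlap. Of the 3 colon markers with an adjusted p 1, Aqp8, was called lower. Beside these calls, 1.06% of all genes tested without tetracycline passed the adjusted threshold in the higher and 1.22% in the lower direction. The part of these lists in the Fabp6 result was not tested. With tetracycline no Paneth, lymphocyte, stromal, myeloid or acinar marker was called and 1 colon marker, Aqp8, was called lower in the authors' DESeq2 test. Of all genes tested with tetracycline, 0.333% passed in the higher and 0.267% in the lower direction. An unadjusted p under 0.05 in that test was found for 2 Paneth, 3 lymphocyte, 2 stromal, 3 myeloid and 0 acinar markers. Over all genes tested, 5.34% had such a p. The fasted libraries there enclosed the fed ones in the Paneth sum (211561 and 37670 against 48222 and 54724) and overlapped them in the lymphocyte sum (18381 and 3135 against 55565 and 14643).

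**Figure D4:**
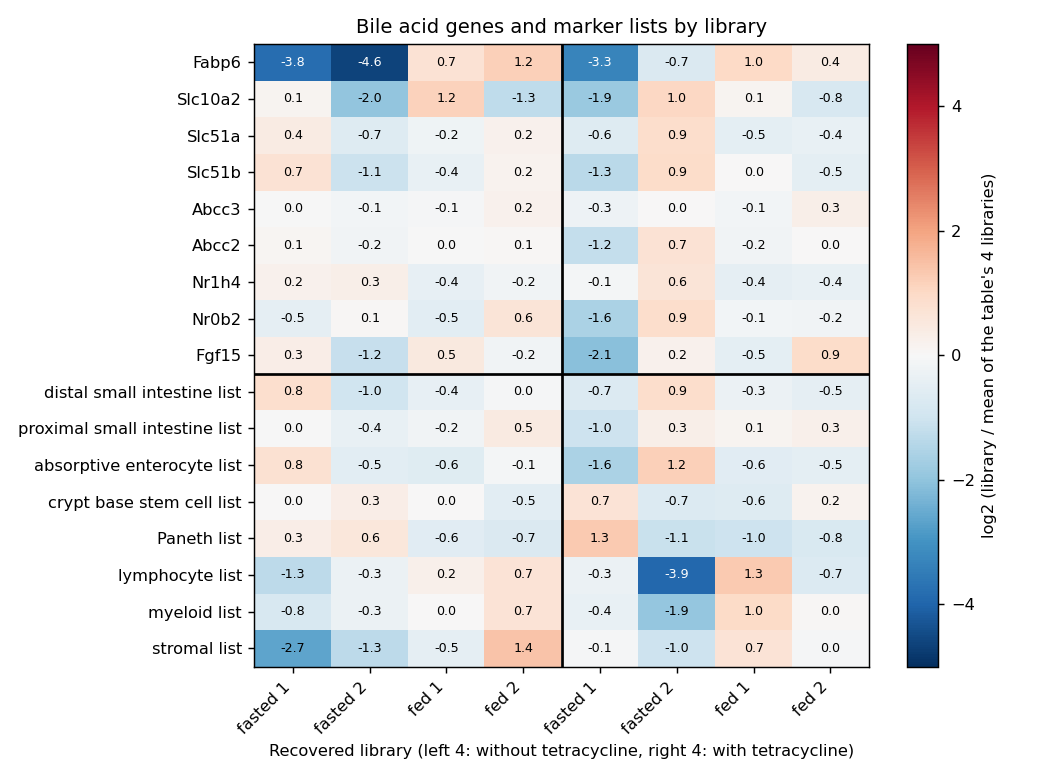
Log2 ratio of each library to the mean of its table's 4 libraries, for 9 bile acid genes (single genes) and 8 marker lists (geometric mean of the recovered genes with a mean of at least 50), with the value written in each cell. Fabp6 is blue in both fasted libraries without tetracycline (-3.8 and -4.6). With tetracycline the members are higher in fasted library 2 than in fasted library 1, by little for Abcc3. The distal, proximal and enterocyte lists are higher there too, and the other lists are reversed.

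The wider bile acid system was read from a list of 38 other genes. Without tetracycline 34 were listed and 30 carried an adjusted p; 2 were called, both higher in fasted mice, as were 1.06% of all genes tested, and 17 of the 30 changes were positive (median 0.07). With tetracycline 36 were listed and 30 carried an adjusted p; none was called, where 0.333% of all genes tested were called higher in fasted mice, and 20 were positive (median 0.23). An unadjusted p under 0.05 was found for 5 genes without and 5 with tetracycline, the same 5 in both, all higher in fasted mice: Cyp27a1, Malrd1, Ugt1a1, Fgfr4 and Ang. Over all genes tested 10.8% and 5.34% had such a p. Of the sterol hydroxylases of bile acid synthesis in liver, Cyp7a1 was listed in neither table, and Cyp7b1 and Cyp8b1 were listed only with tetracycline, at 3 and 2 counts in all.

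The called genes were Cyp27a1 and Malrd1. Cyp27a1, the mitochondrial sterol 27-hydroxylase, held 5501 and 4154 normalized counts in the fasted and 1047 and 1573 in the fed libraries without tetracycline. Its log2 change in the authors' deposited table was 1.88 (SE 0.31, adjusted p 4.05e-07 in the authors' DESeq2 test). With tetracycline it held 2063 and 12776 in the fasted and 1717 and 1157 in the fed libraries, with a change of 2.37 (SE 0.76, adjusted p 0.177). That value rested on fasted library 2 and was 0.52 without it. Fasted libraries were above fed ones in both tables, an order that 20.2% of 12665 genes had without and 15.2% of 12906 with tetracycline.

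Malrd1, known as a regulator of FGF15 release, held 15868 and 9358 normalized counts in the fasted and 5016 and 4812 in the fed libraries without tetracycline. Its deposited log2 change was 1.36 (SE 0.31, adjusted p 0.00134 in the authors' DESeq2 test). With tetracycline it held 7254 and 16533 in the fasted and 3536 and 5258 in the fed libraries, with a change of 1.44 (SE 0.53, adjusted p 0.408), or 0.72 without fasted library 2. Its level was thus the higher one in each fasted library of both tables. That order is common: 20.2% of 12665 genes had it without and 15.2% of 12906 with tetracycline. Fgf15 itself, which was far scarcer, overlapped between groups, and Malrd1 and Fgf15 were not tested against each other. Fgfr4, the FGF15 receptor, had deposited log2 changes of 0.996 (SE 0.36, adjusted p 0.135) and 1.53 (SE 0.53, adjusted p 0.309) in the authors' DESeq2 test. Ugt1a1, which conjugates bilirubin and shares exons with other genes of its locus, had 0.76 (SE 0.25, adjusted p 0.0885) and 1.57 (SE 0.48, adjusted p 0.124). Both were named after their values were seen, as was Ang, and neither was called.

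None of the 9 listed receptors and partners was called in either table in the authors' DESeq2 test, and 0 had an unadjusted p under 0.05. Rxra, which pairs with FXR, had deposited log2 changes of 0.30 (SE 0.26) and 0.05 (SE 0.40), and Hnf4a, an enterocyte and hepatocyte regulator, 0.04 (SE 0.29) and -0.13 (SE 0.37). None of the 7 other transporters with an adjusted p was called either, and again 0 had an unadjusted p under 0.05. The liver's own carriers were near 0: the uptake carrier Slc10a1 had 2 counts in all 4 libraries without tetracycline, and the canalicular pump Abcb11 had 6, 0, 5 and 1. Of the 5 genes described elsewhere as FXR targets in gut, 4 carried an adjusted p and none was called; at an unadjusted p under 0.05 there was 1, Ang, in each table.

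**Figure D5:**
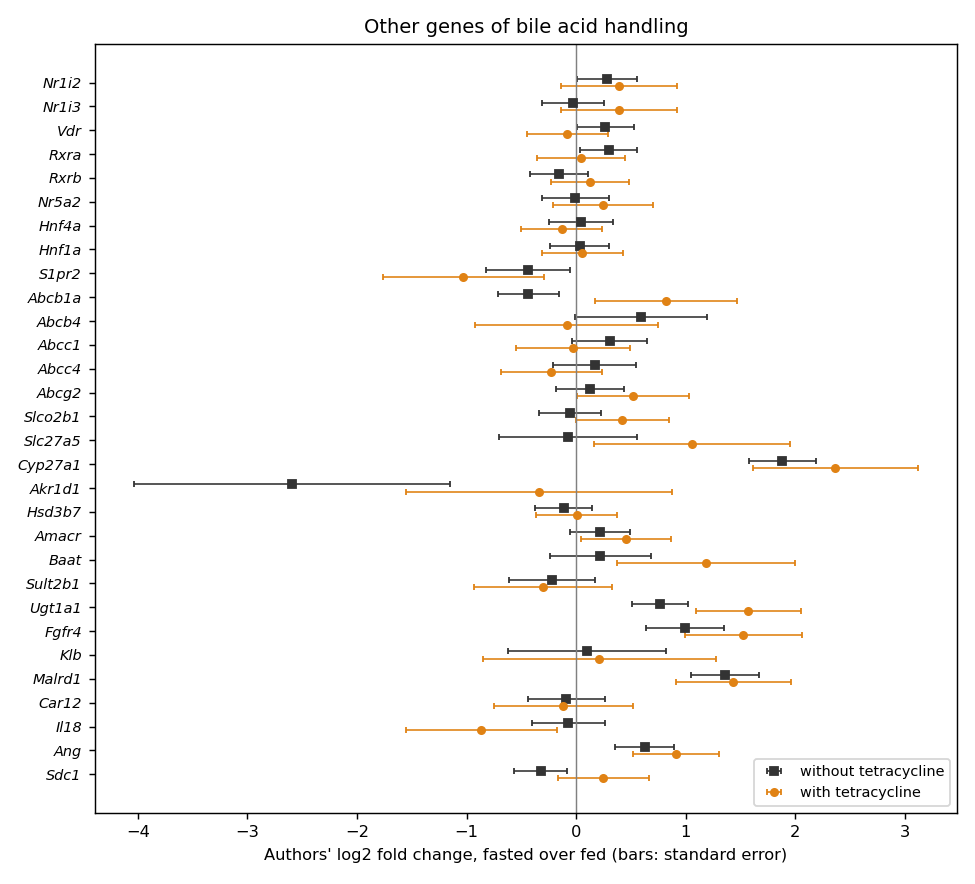
The authors' log2 fold change of fasted over fed, with bars of 1 standard error, for the 30 genes of the wider bile acid list with an adjusted p, without (squares) and with tetracycline (circles). Cyp27a1 (1.88 and 2.37) and Malrd1 (1.36 and 1.44) were the genes called without tetracycline, and no gene was called with it.

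Fabp6 belongs to the fatty acid binding protein family, whose other members carry fatty acids. Fabp1, the liver-type protein, was called higher in fasted mice without tetracycline, with a deposited log2 change of 1.08 (SE 0.27, adjusted p 0.00656 in the authors' DESeq2 test), and had 0.98 (SE 0.38) with it. Fabp2, the intestinal-type protein, had -0.17 (SE 0.37) and 0.0046 (SE 0.53). Fabp5 had -0.94 (SE 0.31, adjusted p 0.0773) and -0.28 (SE 0.44). Of the 6 family members with an adjusted p without tetracycline, Fabp6 was the 1 called lower and Fabp1 the 1 called higher. Of all genes tested there, 1.22% were called lower and 1.06% higher.

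The genes nearest to Fabp6 in their pair of deposited log2 changes, by Euclidean distance over 12492 genes and these 2 comparisons, were Ccl24, Col3a1, Aqp8, Scd2 and Hbb-bt, at distances of 1.28, 1.38, 1.48, 2.12 and 2.14. Ccl24, an eosinophil-attracting chemokine, had changes of -4.00 and -2.82. The water channel Aqp8, most abundant in colon, had -3.76 and -2.77, and the fatty acid desaturase Scd2 -3.01 and -2.39. The collagen gene Col3a1 had -4.24 and -1.16, and the haemoglobin gene Hbb-bt, which has a near-identical copy and is uncertain for that reason, -3.13 and -1.45. Only 0.030% of genes with a mean of at least 50 had a lower log2 change than Fabp6 without tetracycline, and 0.464% with it.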

How the data were processed

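Crypts were released in a chelating buffer and treated with trypsin, and the library kit was non-directional, per the labels' protocols, so reads of genes that overlap on opposite strands cannot be told apart. The authors' tools included Salmon and DESeq2 and their build was mm10, per the submitters' processing notes; versions are not given in the sources used here. The material was 2 tables of the authors' own comparisons with DESeq2's columns, per the file headers. The authors' mean is a signal, the average of counts over size factors; the authors' fold changes and standard errors are log2 values; the authors' statistic is a score, their quotient; the authors' p-values are deposited raw and Benjamini-Hochberg adjusted. There were 0 further per-sample columns.

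Whole counts of each library were recovered from the deposited mean, with fold change and standard error choosing among solutions, for 99.98% of 24858 genes in the untreated table and 99.96% of 25431 in the tetracycline table (mean up to 15000; listed genes up to 60000). Libraries are single values with no SD, test or count model, although counts were assumed possible in the design. The fold changes carry no stated direction; every direction given rests on the table names.

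Calls are the authors' adjusted p under 0.05. The difference of the fasting changes is a Wald test on deposited changes and standard errors, adjusted over 17571 genes. Levels across tables use pseudocount 1. Positions are of GRCm38; 96.3% of gene identifiers carried a version 1 above that in GENCODE mouse release 21, whose exon lengths and gene models were used. Named genes are all 10 members, called genes of the other lists (up to 6 a list) with markers near 0, and the 5 genes nearest to Fabp6; a few more are named for background. Members and lists were chosen with earlier results of these data known. Intervals cover 95% and come from the deposited standard errors; the floor is 3 counts per library and covers counting error only. Python 3.11.15, numpy 2.4.6, scipy 1.17.1, pandas 2.3.3 and matplotlib 3.10.9 were used.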

Additional observations from a re-analysis of the deposited data

How the results depend on the processing

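Of 377 values recomputed under an alternative, 329 moved by less than 1 standard error where there was no test (a sign near 0 could change), or kept their direction and their side of the threshold where there was one, or, as counts, did not change. Leaving out 1 library moved the log2 fasting change of Fabp6 between -5.60 and -4.78 without and between -4.04 and -1.43 with tetracycline, and the difference between them from 1.09 to 3.70. It changed the sign for 12 gene-and-table pairs among the other members, none of them called. For levels with against without tetracycline, leaving out 1 library (chosen after seeing the data) moved the log2 ratio of Fabp6 between -0.81 and -0.22 in fed and between 0.61 and 3.21 in fasted mice, and changed the sign of 9 of the 18 ratios of members. Scaling the Wald statistics by their robust SD, which enlarges each of them, put the Fabp6 difference of 2.92 past the threshold. The number of members called was then 1 in place of 0. Relating Fabp6 to another gene than Slc51a, an alternative chosen after seeing the data, moved its log2 ratio of -5.06 without tetracycline to -4.31 (Slc10a2), -5.73 (Nr1h4), -5.72 (Cubn) and -5.65 (Slc15a1). The other settings (a stricter threshold, pseudocounts, centring, and a minimum mean of 50) changed no call of a member. No paired analysis was possible because the tables hold comparisons, and the recovered libraries carry no replicate numbers. With 2 libraries on each side, an interval of the size seen for Slc10a2 leaves changes of several-fold undetectable. Counts of Gpbar1 were too few for any change to be read.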
